A study of Mus musculus with 16 samples.

Results

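Mouse embryonic stem (ES) cells that carried the Ptn_Delta construct were compared with cells that carried EGFP alone, on 8 of the 16 arrays of the study. The members were chosen by sample title, 4 hybridisations titled Ptn Delta and 4 titled EGFP, and all genes measured on them were described. The cells were of the E14 line, an established mouse ES line, grown in serum with leukaemia inhibitory factor (LIF), a cytokine that holds ES cells undifferentiated. All groups were transfected with plasmid by Lipofectamine, sorted for eGFP at 24 h, seeded again and harvested at 48 h for RNA. EGFP plasmid was the control, and Ptn_Delta, Ptn_DEL and Ptn_VP64 were 3 transcription activator-like effector (TALE) constructs aimed at the gene Ptn. The labels do not say what Delta carries. From knowledge of the published study, it is the Ptn TALE with no VP64 activator, DEL carries a peptide that opens chromatin, and VP64 is a viral activation domain.

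A TALE is a designed protein whose repeats each read a DNA base, so that it can be sent to a chosen promoter. Pleiotrophin, the product of Ptn, is a secreted heparin-binding growth factor that acts in neural and bone development and signals through syndecans, the phosphatase Ptprz1 and integrins. A TALE without an activation domain tests what binding alone does, and comparing it with EGFP asks whether the bound protein, or the transfected construct, alters expression of Ptn or of other genes.

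The promoter of Ptn is shown because it is the gene the constructs were aimed at. RefSeq places this window on the minus strand at chr6:36810130-36810429 of GRCm38.p6. Capitals mark the first 50 transcribed bases, after 250 bases of upstream sequence in lower case.
Ptn promoter: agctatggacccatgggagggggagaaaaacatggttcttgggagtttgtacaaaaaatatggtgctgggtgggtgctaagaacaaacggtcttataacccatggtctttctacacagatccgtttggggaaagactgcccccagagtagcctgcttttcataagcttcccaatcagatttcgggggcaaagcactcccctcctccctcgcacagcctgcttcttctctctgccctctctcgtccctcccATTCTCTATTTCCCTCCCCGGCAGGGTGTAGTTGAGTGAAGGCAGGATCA
The window holds 52% G and C and 6 CpG dinucleotides, against medians of 52.7% and 7 over the 32851 RefSeq promoters of that length. The letters TATAAA occur on neither strand of it and occur in 13.6% of all those promoters. The bases that the TALE was designed to read were not analysed here.

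Levels are log2 of the processed signal over the array's 75th percentile, after correction for dim and bright patches on the slides. Each group holds 2 biological and 2 technical replicates, and which hybridisations repeat which sample is not stated. The test over pairings therefore formed 2 averaged samples per group in each of the 3 ways to pair its arrays, fitted limma to all 4 groups and kept the largest p. Replicates 1 and 2 of every group lay on slide 1, and replicates 3 and 4 on slide 2. On both slides EGFP arrays lay in column 1 and Ptn_Delta arrays in column 4, so that construct and column cannot be told apart. The 75th percentile of signal was 566 to 752 on 3 EGFP arrays, 209 on EGFP replicate 2, and 574 to 818 on the Ptn_Delta arrays. Spots in patches that were left out made up 0.641 to 35.6% of the EGFP arrays and 2.95 to 30.7% of the Ptn_Delta arrays. EGFP replicate 2 stood apart, with a median level of -1.75 for spots not above background, against -4.61 to -3.95 on the other EGFP arrays and -5.68 to -3.70 after Ptn_Delta. After these filters 6384 genes were tested.

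The ES cell label was checked against defining markers. Of 10 ES cell markers, 10 were well above background on at least 2 EGFP arrays and 8 on at least 2 Ptn_Delta arrays, and none was below background on every usable array of either group. Nanog, a homeobox factor of naive pluripotency, had a usable value on only 1 Ptn_Delta array, with a level of 5.11, and on 2 EGFP arrays, with a mean of 5.52. Zfp42 likewise had 1 usable Ptn_Delta array, at 6.06. Both were above background where usable, so the count of 8 reflects too few usable arrays. Markers of other cell types were mostly dim. Counted the same way, 3 of 7 trophoblast markers were above background in EGFP and 6 of 7 after Ptn_Delta, and 1 of 6 and 4 of 6 primitive endoderm markers. Detection and level did not always move together. Gata4, a primitive endoderm factor, was above background on 0 EGFP and 3 Ptn_Delta arrays at mean levels of -2.67 and -2.70, and Gata3, a trophoblast factor, on 0 and 2 arrays at -2.05 and -2.12. Of the other trophoblast markers, mean levels in EGFP and after Ptn_Delta were -2.33 and -1.03 for Cdx2 and -3.43 and -1.74 for Krt7. They were 0.60 and 2.32 for Krt8, 1.56 and 3.70 for Krt18, -1.11 and 0.89 for Krt19 and -2.84 and -5.73 for Elf5. Krt7, Krt8 and Elf5 had 2 usable EGFP arrays, and Krt18 and Elf5 had 2 usable Ptn_Delta arrays. Over the whole array, 27.1 to 41.2% of spots were well above background in EGFP and 34.4 to 43.8% after Ptn_Delta. The counts were 1 of 6 and 3 of 6 for fibroblast, 3 of 5 and 2 of 5 for neural and 1 of 4 in both groups for mesoderm markers. The mesoderm marker differed between the groups. It was Kdr in EGFP, on a probe with 1 usable Ptn_Delta array, and T after Ptn_Delta, which was above background on 0 EGFP arrays. Another Kdr probe, dimmer and the one tested, was above background on 1 EGFP array and 3 Ptn_Delta arrays. In bulk RNA, more cells of a type and more RNA per cell cannot be told apart.

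No gene passed an adjusted p of 0.05 between Ptn_Delta and EGFP in the limma test over pairings (0 of 6384, 0% called higher and 0% called lower). At an unadjusted p under 0.05 there were 192 genes (3.01%), of which 149 were higher (2.33%) and 43 lower (0.674%) after Ptn_Delta. An unaveraged limma fit with the slide as a term, in which technical repeats count as replicates and p is too small, called 1 gene (0.0157%), Cdh10, and had 569 genes at an unadjusted p under 0.05 (8.91%; 6.47% higher and 2.44% lower). A total of 405 genes (6.34%) had every Ptn_Delta array above every EGFP array, and 162 genes (2.54%) had every one below. The difference was positive for 3605 genes (56.5%) and negative for 2779 (43.5%). The filter on dim genes asked for 3 arrays above background in either group, and 4617 genes met it in both, of which 2492 were higher and 2125 lower after Ptn_Delta. It was met by 1580 genes in Ptn_Delta alone (1054 higher, 526 lower) and by 187 in EGFP alone (59 higher, 128 lower), so the direction of such genes was partly set by the filter. On simulated data the test over pairings did not recover changes of 1 log2 unit. It also missed most changes of 2 log2 units and some of the larger ones, so a count of 0 does not show that levels were alike. The median difference over all genes was 0.03 on the log2 scale, and 123 genes differed by more than 1 upwards and 61 by more than 1 downwards.

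**Figure D1:**
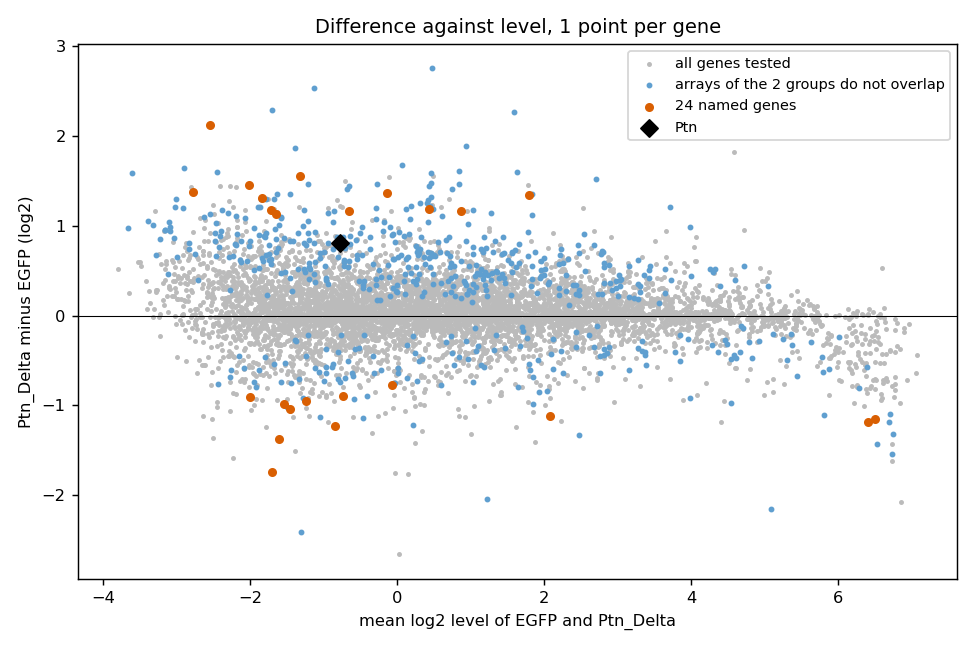
The difference of Ptn_Delta minus EGFP (log2) is plotted against the mean log2 level of both groups, with 1 point for each of 6384 genes. Blue points mark genes whose arrays do not overlap between the groups, orange points the 24 named genes and the diamond Ptn, which sits at 0.81 among the grey points.

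The higher values lay mostly among dim genes. In the quartile of genes with the lowest levels, 63 were higher and 12 lower at an unadjusted p under 0.05, and the median difference was 0.10. In the quartile with the highest levels, 5 were higher and 13 lower, and the median difference was below 0.01 in size.

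Ptn itself did not pass the test between Ptn_Delta and EGFP. Its level in EGFP replicates 1 to 4 was -1.89, -0.15, -1.57 and -1.13. After Ptn_Delta it was -0.47, -0.41, -0.79 and 0.15. The groups overlapped, because EGFP replicate 2 read above 3 of the 4 Ptn_Delta arrays, while the other 3 EGFP arrays lay below all of them. The mean was -1.19 ± 0.76 (SD, n = 4) in EGFP and -0.38 ± 0.39 (SD, n = 4) after Ptn_Delta. The difference was 0.81 ± 0.77 (SE), with an adjusted p of 1.00 over all genes in limma's test over pairings. It was 0.58 on slide 1 and 1.03 on slide 2. Its probe was well above background on 3 arrays of each group, and the readings of EGFP replicate 2 and Ptn_Delta replicate 2 were not. The overlap between the groups thus rests on an EGFP reading not above background. Without EGFP replicate 2 the difference was 1.05 (adjusted p = 1.00, limma over pairings). Without EGFP replicate 1, and without EGFP replicate 3, it was instead smaller than 0.81.

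The other constructs give the scale of that difference. In Ptn_DEL, Ptn read 0.99, -1.76 and 0.15 on the 3 usable arrays, a range that spans all Ptn_Delta values, and Ptn_Delta minus Ptn_DEL was 0.22 ± 0.77 (SE). The reading of 0.99 was not above background, so the upper end of that range rests on an undetected value. In Ptn_VP64 the same probe was usable on 1 array only, at 3.36, so that Ptn_Delta minus Ptn_VP64, -3.74 ± 0.95 (SE), rests on that array and had an adjusted p of 0.66 in limma's test over pairings. A second Ptn probe, not in the test, read 2.98, 2.60 and 3.31 on 3 Ptn_VP64 arrays. On the Ptn_Delta arrays it read -1.58, 0.56 and -1.88, and on EGFP arrays -0.31 and -2.17. Of these readings only -1.58 and -2.17 were above background. On both probes the Ptn_VP64 values lay above every Ptn_Delta value.

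Of 16 genes of the pleiotrophin system, Ptn included, 5 passed the filters and all 5 differences were positive, with a median of 0.78 against 0.03 over all genes (-0.031 under normexp background correction), and 0 were called. All but Ptn met the filter in Ptn_Delta alone, which favours that direction. Without the filter the median of 11 members was 0.20, against -0.19 over all genes in that setting. Sdc4, a syndecan that gathers heparin-binding factors at focal adhesions, read 0.02, -0.56 and 0.05 on 3 EGFP arrays and 1.81, 0.27, 1.30 and 0.70 after Ptn_Delta. The groups did not overlap, and the difference was 1.28 ± 0.55 (SE, adjusted p = 1.00, limma over pairings). Sdc1, the syndecan of epithelia, read -0.02, 0.16 and -0.79 in EGFP and 0.24, 1.12 and 0.82 after Ptn_Delta, a difference of 0.78 ± 0.30 (SE). Its lowest Ptn_Delta array lay just above its highest EGFP array, and the difference was 0.27 on slide 1 and 1.28 on slide 2. Itgav, the integrin alpha V subunit that pairs with beta 3 to bind pleiotrophin, was above background on no EGFP array and on 3 Ptn_Delta arrays. It differed by 0.74 ± 0.37 (SE), though its groups overlapped through EGFP replicate 2. Below, a fold given as at least compares the Ptn_Delta mean with the EGFP arrays. Each EGFP array entered at the higher of its own reading and its lowest level that counted as above background. That floor was a single spot per array, at -3.06 to -2.25, while the 1st percentile of such levels lay at -2.41 to -1.55. These folds therefore hold for that floor only, and a higher floor would make them smaller or leave none. Sdc2, a mesenchymal syndecan, differed by 0.02 ± 0.40 (SE), with values from -1.83 to -1.18 in EGFP and from -1.96 to -0.87 after Ptn_Delta.

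**Figure D2:**
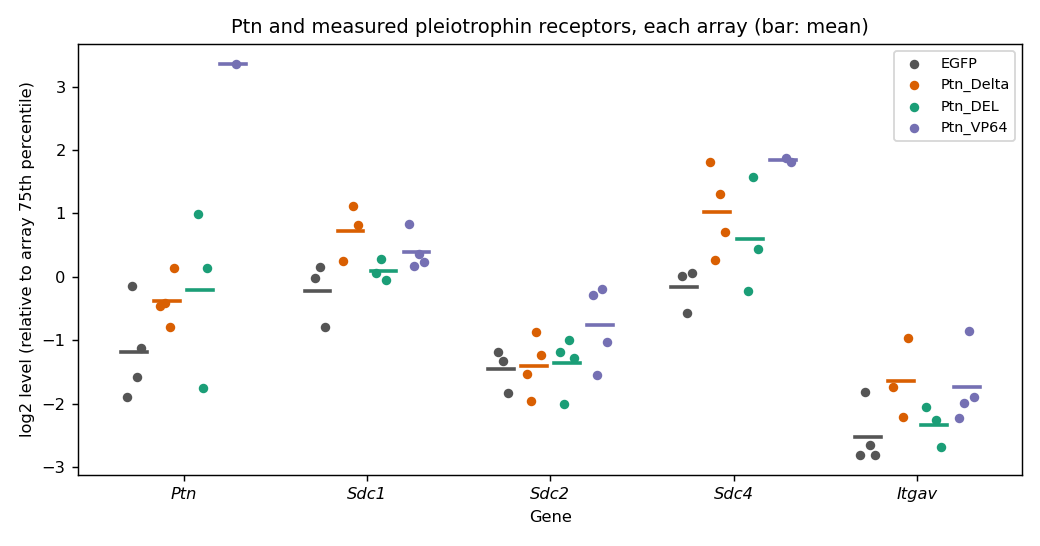
Log2 levels of Ptn and 4 measured pleiotrophin receptors are shown with 1 point per usable array and a bar at the mean of each group. Ptn after Ptn_VP64 stands at 3.36 on its single usable array, and the Ptn_Delta and EGFP points of Ptn overlap through EGFP replicate 2.

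Of 20 genes around Ptn, the 10 nearest on each side among genes on the array, 5 passed the filters with 0 called, and 4 of the 5 met the filter in Ptn_Delta alone. On one side the nearest measured were Nup205, a nuclear pore subunit, and Cnot4, a ubiquitin ligase of the CCR4-NOT complex. Nup205 read 4.65, 4.13 and 4.32 in EGFP and 4.66, 4.78, 4.68 and 5.20 after Ptn_Delta, a difference of 0.39 ± 0.28 (SE). Cnot4 was above background on no EGFP array and read from -2.68 to -1.35 after Ptn_Delta, at least 1.01-fold higher, with an overlap through EGFP replicate 2. On the other side were Creb3l2, a membrane-bound transcription factor, and Atp6v0a4, a proton pump subunit. Neither was above background on any EGFP array, so no fold is given for either. Creb3l2 read from -3.94 to -2.63 in EGFP and from -3.21 to -3.12 after Ptn_Delta, a fitted difference of -0.01 ± 0.34 (SE). Atp6v0a4 read from -2.45 to 0.03 in EGFP and from -3.51 to -1.59 after Ptn_Delta, a fitted difference of -0.93 ± 0.67 (SE). The closest genes on each side, Mtpn, Chrm2 and Dgki among them, did not pass the filters.

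The 12 higher genes with the smallest p are given as not past the threshold, each with an adjusted p of 1.00. Cdh10, a type II cadherin of neural cell contacts, had the smallest p of all. It read -3.72, -2.84, -3.63 and -4.24 in EGFP, above background on 0 arrays, and -1.69, -1.55, -1.40 and -1.30 after Ptn_Delta, above background on 4. No arrays overlapped, the lowest Ptn_Delta array stood 1 unit or more above the highest EGFP array, and the level was at least 2.27-fold higher. The difference was 1.66 on slide 1 and 2.59 on slide 2, and the unaveraged limma fit gave an adjusted p of 0.013. Mean levels in Ptn_DEL and Ptn_VP64 were -1.75 and -0.04, so that all 3 TALE groups had means above the EGFP mean of -3.61.

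Adamts1, a secreted metalloproteinase that cuts proteoglycans, read between -2.84 and -2.66 on the 4 EGFP arrays and between -1.68 and -0.81 on the Ptn_Delta arrays, at least 2.52-fold higher. Under normexp background correction its fitted difference was -0.02. Lpar6, a lysophosphatidic acid receptor, read 1.27, 0.97 and 1.20 in EGFP and 2.69, 2.36 and 2.31 after Ptn_Delta, a difference of 1.34 ± 0.20 (SE) that was 1.42 on slide 1 and 1.25 on slide 2. Npw, the precursor of neuropeptide W, differed by 1.17 ± 0.25 (SE), and by -0.10 under normexp. Lpar6 was well above background on every usable array of both groups, whereas Adamts1 was above it on no EGFP array.

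Rgs16, which speeds GTP hydrolysis by G proteins, read -1.85, -2.75 and -1.91 in EGFP and -0.76, 0.11 and -0.74 after Ptn_Delta. It was above background on no EGFP array and differed by 1.55 ± 0.29 (SE). Creb3, a transcription factor released from the endoplasmic reticulum membrane, read from -0.11 to 0.51 in EGFP and from 1.05 to 1.65 after Ptn_Delta. Creb3 was above background on all 8 arrays and differed by 1.16 ± 0.26 (SE). Ezhip, an inhibitor of the histone methyltransferase complex PRC2, differed by 1.36 ± 0.33 (SE) and Commd9, a COMM domain protein of endosomal sorting, by 1.19 ± 0.25 (SE).

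Tap1 and Tap2 encode the subunits of the transporter that loads peptides for class I presentation, and both were among the 12. Tap1 read from -2.81 to -1.82 in EGFP and from -1.23 to -0.95 after Ptn_Delta, a difference of 1.13 ± 0.26 (SE). Tap2 read from -4.09 to -3.18 in EGFP and from -2.73 to -1.57 after Ptn_Delta, at least 1.62-fold higher. Under normexp background correction the fitted difference of Tap2 was -0.08. Neither Tap1 nor Tap2 was above background on any EGFP array, and both were on 4 Ptn_Delta arrays. Alox5, the lipoxygenase of leukotriene synthesis, differed by 1.31 ± 0.31 (SE) and was likewise above background on no EGFP array. Slc18b1, a vesicular polyamine transporter, differed by 1.16 ± 0.25 (SE). All 12 were chosen by p between these same arrays, so that their lack of overlap is part of the choice. Only Creb3 and Lpar6 of the 12 met the filter on dim genes in both groups, and the other 10 met it in Ptn_Delta alone.

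**Figure D3:**
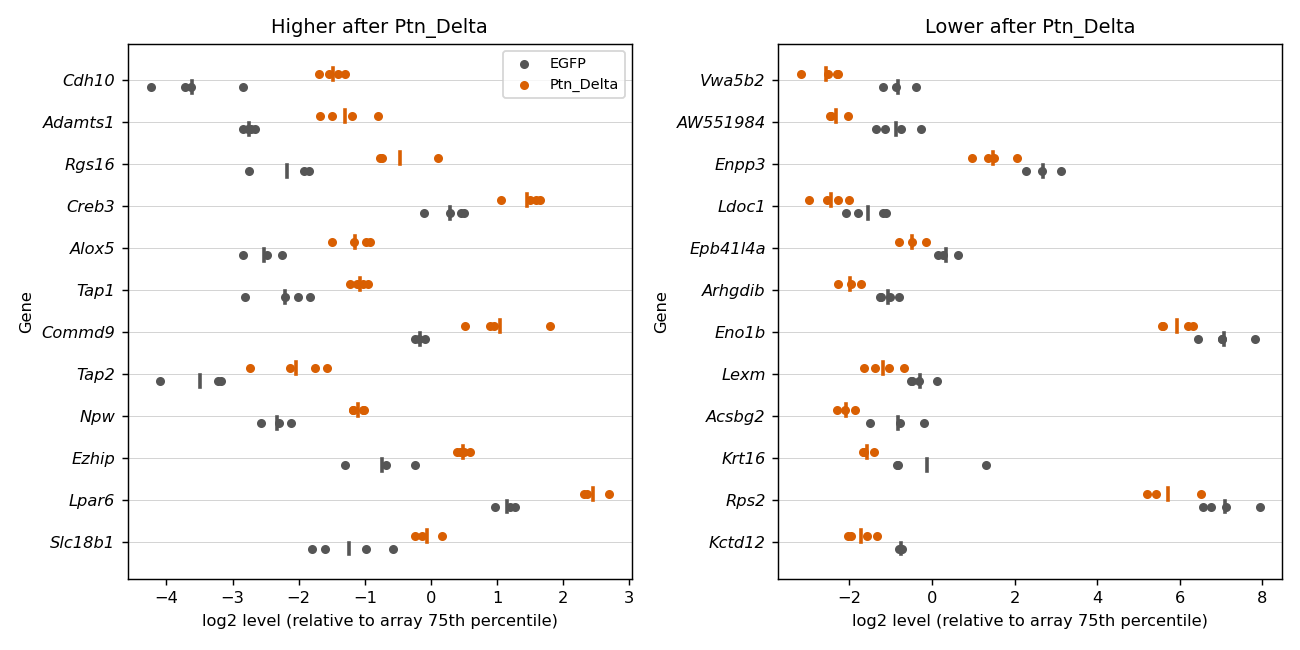
Log2 levels of the 12 higher (left) and 12 lower (right) genes with the smallest p are drawn with 1 point per usable array and a bar at each group mean. EGFP is grey and Ptn_Delta orange, and the points of Cdh10 lie from -4.24 to -2.84 in EGFP and from -1.69 to -1.30 after Ptn_Delta.

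The 12 lower genes with the smallest p likewise all had an adjusted p of 1.00 in limma's test over pairings. Vwa5b2, a protein with a von Willebrand factor A domain, read -0.39, -1.18 and -0.88 in EGFP and -2.53, -2.31, -3.17 and -2.29 after Ptn_Delta. Its groups did not overlap, and it differed by -1.74 ± 0.41 (SE). AW551984, for which no role is given, read from -1.36 to -0.27 in EGFP and from -2.47 to -2.04 after Ptn_Delta, a difference of -1.37 ± 0.36 (SE). Enpp3, an ectoenzyme that splits extracellular nucleotides, was the brightest of them not saturated and read 2.29, 2.66 and 3.12 in EGFP against 1.36, 2.06, 1.51 and 0.97 after Ptn_Delta.

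Enpp3 differed by -1.12 ± 0.34 (SE), by -0.77 on slide 1 and by -1.88 on slide 2. Smaller differences were seen for Ldoc1, a retrotransposon-derived nuclear protein (-0.91 ± 0.28, SE), Epb41l4a, a FERM domain protein (-0.77 ± 0.25, SE), and Arhgdib (-0.99 ± 0.31, SE). Lexm differed by -0.89 ± 0.29 (SE), Acsbg2, an acyl-CoA synthetase, by -1.04 ± 0.34 (SE), and Kctd12, an auxiliary subunit of GABA-B receptors, by -0.95 ± 0.33 (SE). Krt16, a type I keratin, read 1.31 on EGFP replicate 2 and -0.82 and -0.85 on the other usable EGFP arrays, against -1.66, -1.64 and -1.40 after Ptn_Delta. Its difference was -2.98 on slide 1, where EGFP replicate 2 lies, and -0.69 on slide 2.

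Eno1b, an enolase whose sequence is close to that of Eno1 so that its probe may read both, and Rps2, a protein of the small ribosomal subunit, were at the top of the scanner's range. Eno1b was saturated on all 4 arrays of both groups, and Rps2 on 3 of 4 EGFP and all 3 usable Ptn_Delta arrays, so no fold is given for either. A saturated spot reads higher in level where the array's 75th percentile is low, and EGFP replicate 2 gave the highest value of both genes, 7.81 and 7.93. Of 183 genes saturated on at least 1 of the 8 arrays, 20 were higher and 163 lower after Ptn_Delta, with a median of -0.37, and the median was -0.50 on slide 1 and -0.30 on slide 2.

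Against the other TALE constructs, the named genes were close to Ptn_DEL. The difference of Ptn_Delta minus Ptn_DEL lay between -0.15 (Creb3) and 0.54 (Rgs16) for the 12 higher genes, and between -0.37 (Enpp3) and 0.19 (AW551984) for the 12 lower genes. Because both comparisons use the same Ptn_Delta arrays, their values are set side by side only. Over all genes, Ptn_Delta minus Ptn_DEL gave 0 called of 6384 (0% higher, 0% lower) in limma's test over pairings and 5 genes at an unadjusted p under 0.05 (0.0783%), all higher after Ptn_Delta. These were Gm11938, Klhdc4, Med10, Rsl1d1 and Tenm4, named after their values were seen. The unaveraged fit gave 0 called and 33 genes at an unadjusted p under 0.05 (0.517%).

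Ptn_Delta minus Ptn_VP64 gave 1 gene called of 6368 with a value in both groups (0.0157% lower, 0% higher), and 375 genes at an unadjusted p under 0.05 (5.89%; 2.87% higher and 3.02% lower). The unaveraged fit called 69 genes (1.08%) and had 837 at an unadjusted p under 0.05 (13.1%). The gene called was Il33, an alarmin cytokine of the interleukin family, which lies outside the rule for named genes and is named after its values were seen. It read -2.71 ± 0.43 (SD, n = 4) after Ptn_Delta and 2.57 ± 0.09 (SD, n = 3) after Ptn_VP64, with an adjusted p of 0.0032 in limma's test over pairings. The call was lost without patch correction, with marked spots kept, with quantile normalization, with normexp, with the series values, without the filter on dim probes and on slide 1 alone. Over the 5728 genes with at least 3 usable arrays in both groups, the interquartile range of Ptn_Delta minus Ptn_DEL ran from -0.09 to 0.09 on the log2 scale. For Ptn_Delta minus EGFP it ran from -0.12 to 0.24 over 6384 genes, and for Ptn_Delta minus Ptn_VP64 from -0.23 to 0.25 over 4565 genes. Whether those spreads differ from each other was not tested.

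**Figure D4:**
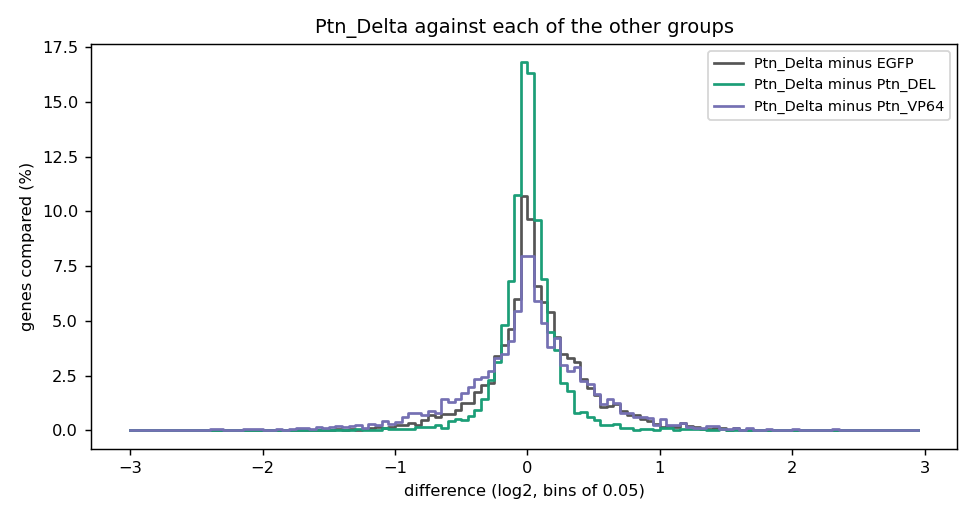
The share of genes (%) is plotted against the difference on the log2 scale in bins of 0.05 for Ptn_Delta minus EGFP, Ptn_DEL and Ptn_VP64, over genes with at least 3 usable arrays in both groups and for differences between -3 and 3. The Ptn_DEL curve is the narrowest and the EGFP curve leans to positive values, with quartiles of -0.12 and 0.24.

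Among gene lists, targets of p53, the transcription factor of the DNA damage response, lay mostly higher after Ptn_Delta. Of 27 listed genes 13 passed the filters, 12 higher and 1 lower, with a median of 0.46 against 0.03 over all genes, and 0 were called. Both groups met the filter on dim genes for 11 of the 13, of which 10 were higher. In 4 of the 13 every Ptn_Delta array lay above every EGFP array, against 6.34% of all genes. The list's median was 0.74 on slide 1 and 0.50 on slide 2. Perp, a desmosomal p53 target, read 2.70, 3.53 and 2.90 in EGFP and 4.32, 4.26, 4.52 and 4.38 after Ptn_Delta, a difference of 1.20 ± 0.33 (SE). Plk2, a stress-responsive polo-like kinase, read 0.60, -0.98 and 0.41 in EGFP and 1.22, 1.46 and 0.94 after Ptn_Delta. Perp and Plk2 did not overlap between the groups, nor did Apaf1, the scaffold of the apoptosome, which differed by 0.70 ± 0.27 (SE). Cdkn1a, the cyclin-dependent kinase inhibitor p21, differed by 0.68 ± 0.31 (SE), and its groups overlapped. The lower member was Trp53, the gene of p53 itself, at -0.47 ± 0.37 (SE), which became 0.12 without EGFP replicate 2. Ptn_Delta minus Ptn_DEL was 0.10 for Perp, -0.38 for Plk2, -0.13 for Apaf1 and 0.07 for Cdkn1a, and the median over the list was 0.01.

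Immediate early genes, which respond to growth factor and stress signals, gave 5 of 19 measured, all 5 higher with a median of 0.34, and 0 called, and 4 of the 5 met the filter in both groups. Klf6, a zinc finger factor of that group, read from 2.12 to 2.63 on 3 EGFP arrays and from 3.00 to 3.26 on 3 Ptn_Delta arrays. It differed by 0.68 ± 0.32 (SE) with no overlap. Of the 2-cell-like genes, which mark a rare state of ES cell cultures, 6 of 13 were measured, 3 higher and 3 lower, with a median of 0.28. Without the filter on dim probes the median was -0.06 over 11 members, against -0.19 over all genes. Zscan4c read 2.36, 2.28 and 2.24 in EGFP and 2.97, 3.07, 3.00 and 3.22 after Ptn_Delta, a difference of 0.78 ± 0.36 (SE). Tcstv3, another gene of that state, differed by 0.83 ± 0.44 (SE) and was above background on 1 EGFP array and 4 Ptn_Delta arrays. Sp110, an interferon-induced nuclear body protein on that list, went the other way, with 5.87, 6.33, 5.96 and 4.60 in EGFP and 5.31, 5.21 and 4.00 after Ptn_Delta, a difference of -0.76 ± 0.41 (SE) with overlap. Tcstv1 read from -2.37 to -1.20 in EGFP, above background on no array, and from -3.33 to -1.75 after Ptn_Delta.

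Trophoblast genes, active in the placental lineage, had 3 of 18 measured and 0 called. All 3 met the filter on dim genes in Ptn_Delta alone, so that their higher levels, with a median of 1.29 (1.15 with the gene below background in EGFP at its bound), were favoured in advance. Without the filter 8 members were measured, and their median was -0.30, against -0.19 over all genes in that setting. Cdx2, the homeobox factor that specifies trophectoderm, read -2.82, -1.28, -2.27 and -2.95 in EGFP and -1.05, -1.19, -0.78 and -1.11 after Ptn_Delta. It was above background on 0 EGFP and 3 Ptn_Delta arrays, did not overlap and was at least 2.21-fold higher. Rhox6, a placental homeobox gene, differed by 1.15 ± 0.71 (SE), and Krt19, a simple-epithelium keratin, by 1.54 ± 1.24 (SE). Both overlapped between the groups. Krt19 read -2.43, 0.73 and -1.64 on EGFP replicates 2 to 4 and 2.15, -0.55, 2.16 and -0.21 after Ptn_Delta. The median level of the measured trophoblast genes ranged from -2.43 to -0.77 on the EGFP arrays and from -0.55 to 0.40 on the Ptn_Delta arrays. Elf5, another defining trophoblast marker, was above background on no array of either group. The part of such cells in the other differences was not tested.

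Primitive endoderm genes had 5 of 19 measured, with a median of 0.48 (-0.18 under normexp background correction), and 0 called. Of the 5, Gata4, Foxa2 and Cubn met the filter in Ptn_Delta alone. Without the filter the median of 12 members was 0.08, against -0.19 over all genes in that setting. Col4a1, a basement membrane collagen chain, read -0.85, -0.05, -0.40 and -0.09 in EGFP and 0.57, 0.50, 0.39 and 0.67 after Ptn_Delta, with no overlap and a difference of 0.88 ± 0.36 (SE). It was the only one of the 5 whose arrays did not overlap, beside 6.34% of all genes higher and 2.54% lower without overlap. The primed epiblast list had 8 of 14 measured, 5 higher and 3 lower, with a median of 0.16. Its largest differences either way were 0.58 ± 0.31 (SE) for Sox4, an SRY-related factor, and -0.70 ± 0.81 (SE) for Car14, a carbonic anhydrase, followed by -0.67 ± 0.53 (SE) for Foxd3, a forkhead factor. Sox4 did not overlap between the groups, and Car14 and Foxd3 did.

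Pluripotency genes showed no shift that passed the test. Of 22 naive pluripotency genes 5 were measured, 1 higher and 4 lower, with a median of -0.12 (-0.59 without patch correction and -0.65 with the series values), and of 12 core genes 4 were measured, 1 higher and 3 lower, with a median of -0.13. Nr0b1, an orphan nuclear receptor of ES cells, read 5.10, 5.84, 4.95 and 5.71 in EGFP and 4.60, 4.97, 4.71 and 4.37 after Ptn_Delta, a difference of -0.74 ± 0.33 (SE), and its groups overlapped. Stat3, the effector of LIF, differed by 0.52 ± 0.38 (SE), and Dppa2, an ES cell chromatin factor, by -0.36 ± 0.37 (SE). Sox2, a core factor, read 5.28, 5.08 and 5.42 in EGFP and 5.49, 5.22 and 4.60 after Ptn_Delta. Pou5f1, which encodes Oct4, read 8.07 on EGFP replicate 2, where it was saturated, and 6.35 and 7.13 on the other usable EGFP arrays. After Ptn_Delta it read 5.07, 6.35 and 6.50, so that the fitted -0.87 ± 0.68 (SE) rests on slide 1, where 1 array of each group was usable, and was -0.31 on slide 2.

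Of 12 reference genes 7 were measured and all 7 were lower, with a median of -0.21 (0.14 without patch correction). Gapdh, a glycolytic enzyme, and Rplp0, a ribosomal protein, were saturated on every usable Ptn_Delta array and on 2 of 3 and 3 of 4 EGFP arrays, so no fold is given for either. Gapdh read 9.09 on EGFP replicate 2 and 6.39 and 7.13 on the others, against 5.30, 6.45 and 6.67 after Ptn_Delta. Heat shock genes had 7 of 11 measured, 1 higher and 6 lower, with a median of -0.12, and Hspe1, a mitochondrial chaperonin, differed by -0.71 ± 0.33 (SE), with 1 of 3 EGFP and 2 of 4 Ptn_Delta arrays saturated.

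Interferon and innate sensing genes had 9 of 25 measured, 2 higher and 7 lower, with a median of -0.13 (0.024 with quantile normalization and 0.67 with the series values). Oas1a, an oligoadenylate synthetase of antiviral defence, read 0.64, 0.67, 0.47 and 0.54 in EGFP and 0.01, 0.24 and -0.21 after Ptn_Delta, with no overlap and a difference of -0.51 ± 0.37 (SE). Stress genes of the endoplasmic reticulum and integrated stress response had 11 of 17 measured, 5 higher and 6 lower, with a median of -0.09, and Asns, asparagine synthetase, differed by -0.50 ± 0.30 (SE). Nuclear envelope genes had 7 of 12 measured, 5 higher and 2 lower, and Lmnb2, a B-type lamin, differed by 0.70 ± 0.40 (SE).

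Sterol and lipid synthesis genes had 8 of 16 measured and a median of 0.27, above the third quartile of all genes (0.24). Mesoderm genes had 3 of 14 measured, all 3 through Ptn_Delta alone, and a median of 0.24 that ran from -0.78 without the filter on dim probes to 1.52 with the series values. Neural genes had 4 of 16 measured and a median of 0.10 (-0.32 to 1.13 between the same settings). Over all genes the median was -0.19 without that filter and 0.21 with the series values. Sox1, a neural stem cell factor, read 0.03, -0.01, -0.07 and 0.58 in EGFP and -1.20, -0.82 and -1.19 after Ptn_Delta. Every Ptn_Delta array lay below every EGFP array, and the difference was -1.14 ± 0.73 (SE). Medians were -0.07 for cell cycle (4 of 21) and -0.11 for fibroblast genes (4 of 15), the latter from -0.55 under normexp to 1.09 with the series values. No member of any list was called in the limma test over pairings. Of 123 members tested, 6 had an unadjusted p under 0.05, all higher (3 p53 targets, Cdx2, Col4a1 and Sdc1), beside 192 of all genes (3.01%), of which 149 were higher.

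**Figure D5:**
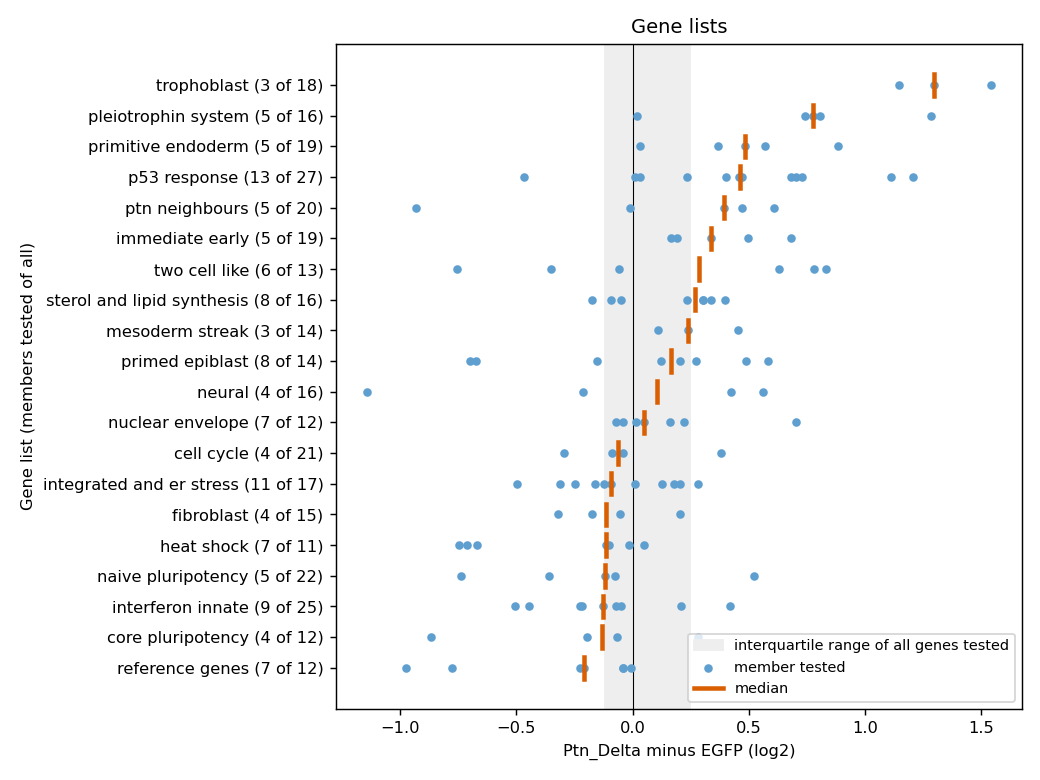
Each blue point is a measured member of a gene list at its difference of Ptn_Delta minus EGFP (log2), each orange bar the list's median, and the grey band the interquartile range of all 6384 genes, from -0.12 to 0.24. The p53 list has 12 of 13 points above 0, and the reference genes have 7 of 7 below.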

How the data were processed

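Deposited Feature Extraction tables of 16 single-colour arrays (Agilent Feature Extraction 11.5.1.1, per the file headers) were used. Per the file headers, the processed signal is an intensity from which background was subtracted and a spatial trend removed, with no scaling across arrays. The authors' series table holds log2 values that share 1 set of quantiles, and served as an alternative.

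Of 55681 non-control probes, 27656 had exactly 1 symbol in a RefSeq table (GRCm38.p6) and 28025 had none. The log2 level is log2 of the processed signal minus log2 of the array's 75th percentile. The local shift was the median, in a window of 21 by 21 spots, of the differences from the median over 16 arrays at 17906 bright spots. It was subtracted. Spots more than 1 unit from the array's median shift were dropped, as were spots marked as population outliers or non-uniform. Probes needed values on 3 of 4 arrays of EGFP and of Ptn_Delta, and a signal well above background on 3 arrays of either. Of several probes of a gene that met these filters, the brightest was used, so a brighter probe with too few usable arrays was passed over. Sall4 was thus tested on a probe at -1.63 in EGFP, while another read 3.40 there on 2 usable arrays.

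limma 3.58.1 (lmFit, eBayes, 2-sided; R 4.3.3) was fitted over all 4 groups as described, with the slide as a term in the pairing it does not cancel in, and p adjusted by Benjamini-Hochberg. Difference and SE come from the pairing with the largest p, and can depart from the difference of means. That choice leans to smaller differences: their median over all genes was 0.03, against 0.07 in the unaveraged fit. Medians, quartiles and counts of differences are built on these values. A comparison with Ptn_VP64 or Ptn_DEL was made only where that group had a value. Whether repeats share a culture is not stated, so p may measure technical spread in part. The named genes are Ptn and the measured pleiotrophin genes, the 12 rises and 12 falls of smallest p with 1 sign on both slides, up to 4 members per list and the 2 nearest measured neighbours on each side. Members and lists were chosen with earlier results of these data known. Fits were tested on simulated data. The number of arrays limits the precision.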

Additional observations from a re-analysis of the deposited data

Results flagged for a closer look

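Among 67 groups of 4 arrays checked for the genes named, 4 had an array far from the other 3, about as many as the 1 in 20 that chance gives. Itgav read -1.82 on EGFP replicate 2 and from -2.81 to -2.66 on the other EGFP arrays. Cnot4 read -1.01 on EGFP replicate 2 and from -3.31 to -3.09 on the others. Sox4 read 2.10 on Ptn_Delta replicate 4 and from 1.73 to 1.76 on the other Ptn_Delta arrays. Sox1 read 0.58 on EGFP replicate 4 and from -0.07 to 0.03 on the other EGFP arrays. EGFP replicate 2 is the array with the lowest 75th percentile of signal, and its part in the first 2 was not tested.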

How the results depend on the processing

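The count of 0 genes called for Ptn_Delta minus EGFP became 1 with arrays not averaged and the slide as a term, and 2 on slide 2 alone. It stayed at 0 in the other unblocked alternatives, including those that left out 1 array each (0 to 0). For Ptn_Delta minus Ptn_DEL it became 1 on slide 2 alone (0 to 0 leaving out 1 array). For Ptn_Delta minus Ptn_VP64 the 1 gene became 0 without patch correction, with marked spots kept, with quantile normalization, with normexp, with the series values, without the filter on dim probes and on slide 1 alone. It became 2 on slide 2 alone and 69 unaveraged, and was 1 to 1 leaving out 1 array. A requirement of 3 usable arrays in the other construct, added after the data were seen, left 0 and 1. So did all non-control probes, also added then.

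The replicate numbers matched EGFP and Ptn_Delta arrays on slide 1 only. Deviations of same-numbered arrays correlated by 0.330 and 0.523 on slide 1 and by 0.060 and -0.056 on slide 2, over 1971 genes. Differently numbered arrays of the same slide gave -0.330 and -0.357 on slide 1 and 0.206 and 0.120 on slide 2. Replicates 1 and 3 lay in row 2 of their slide and replicates 2 and 4 in row 1, so that number and row cannot be told apart. With the replicate block, unaveraged, 41 genes were called for Ptn_Delta minus EGFP and 193 for Ptn_Delta minus Ptn_VP64. With the number of the averaged sample as the block the counts were 0 and 1. With the block, unaveraged, Krt19 was called (1.58, adjusted p = 0.0346). With the block, Sdc2 was -0.011 unaveraged and -0.017 averaged, Creb3l2 0.11 and Pou5f1 0.010.

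Ptn was -0.050 under normexp (offset 50, on median signals) and otherwise 0.37 to 1.46, with 0.37 to 1.05 leaving out 1 array. Among arrays left out, EGFP arrays moved it most, where replicate 1 gave 0.37, replicate 3 gave 0.45 and replicate 2 gave 1.05. It had no value at a limit of 0.5. Under normexp, Adamts1 was -0.021, Tap2 -0.085, Npw -0.10, Tcstv3 -0.28, Trp53 0.18 and Sdc2 -0.39. Without patch correction, Krt16 was 0.34, Cnot4 -2.61, Creb3l2 0.39, Atp6v0a4 0.29, Dppa2 0.051, Pou5f1 1.13, Gapdh 0.55, Sp110 0.11, Tcstv1 0.95 and Trp53 0.32. With the series values, Krt16 was 0.43, Cnot4 -2.72, Creb3l2 0.69, Atp6v0a4 0.60, Pou5f1 0.77, Gapdh 0.017, Sp110 0.12, Tcstv1 1.30 and Trp53 0.13. Arhgdib was 0.39 with marked spots kept. Sdc2 was -0.12 at a limit of 0.5, -0.0089 with the 75th percentile over probes bright on all arrays, -0.017 with only EGFP and Ptn_Delta fitted and -0.56 on slide 1. Cnot4 was -0.16 with at least 2 arrays. Creb3l2 was 0.0090 with a window of 31 spots, 0.19 with quantile normalization, 0.12 unaveraged and 0.51 on slide 2. Sp110 was 0.90 at a limit of 0.5, Tcstv1 0.13 with quantile normalization and Trp53 0.18 on slide 2. Sox2 was 0.075 with a window of 31 spots and 0.21 on slide 1. Leaving out 1 array, values ran from -1.04 to 0.36 for Arhgdib, -0.14 to 0.18 for Sdc2, -0.16 to 1.02 for Cnot4, -0.16 to 0.48 for Creb3l2, -1.85 to 0.17 for Pou5f1, -2.18 to 0.069 for Gapdh, -1.06 to 0.12 for Trp53 and -0.31 to 0.056 for Sox2. Without EGFP replicate 2, Pou5f1 was 0.17, Gapdh 0.069 and Trp53 0.12. For Cnot4, Creb3l2, Atp6v0a4 and Tcstv1, above background on no EGFP array, and for saturated Gapdh these are fitted values and no measure of a fold. The causes were not tested.

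The median of all genes moved from 0.03 to 0.29 without patch correction, 0.21 with the series values, -0.19 without the dim filter and 0.11 with all 4 arrays required. The p53 list's median stayed between 0.23 and 0.74 in every alternative run, while that of the reference genes ranged from -0.24 to 0.14, of trophoblast genes from -0.30 to 1.67 and of primitive endoderm genes from -0.18 to 1.11.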
